A study of Drosophila melanogaster with 63 samples.

Results

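The 6 genes described here, srp, Hml, Pvr, crq, atilla and Col4a1, are known markers of Drosophila hemocytes, the blood cells of the fly. They were chosen by name from 13911 protein-coding genes of the Release 6 annotation. Every peak that overlapped one of these genes, or the 2 kb on either side of it, was collected from 46 ChIP-seq peak lists, 1 list per library. This gave 206 of the 190933 peaks in all lists, and 40 of the 46 lists held at least 1 of them. The 6 lists without any were the 3 NURF301 lists after NURF301 knockdown and the 3 Su(Hw) lists after Su(Hw) knockdown.

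In Kc167, a female cell line that stems from embryos, the study mapped NURF301 together with gypsy insulator proteins. Chromatin was precipitated with antibodies to CP190, Su(Hw), NURF301 or Mod(mdg4)67.2, or to GFP in the Kc-MOD-GFP line, which per its name carries tagged Mod(mdg4). Knockdown cells received dsRNA to Nurf301, Cp190 or su(Hw), 5 ug per transfection, and grew for 4 days, and mock cells fall into a mock and a mock2 series that the labels distinguish by title alone. NURF301, CP190 and Su(Hw) had 3 libraries in each mock series, and each knockdown had 3 libraries per antibody, except the Cp190 knockdown with 2. Mod(mdg4)67.2 was mapped in 3 libraries of the mock series and GFP in 3 libraries of the tagged line. Su(Hw) was not mapped after Cp190 knockdown in the samples used here. All groups are of 1 cell line or its derivative, and no label says that libraries of a group came from separate cultures, so that every p-value below measures the spread between these libraries, which may be technical.

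Hemocytes arise under the control of the GATA factor Serpent, and most of them are plasmatocytes, which engulf dying cells and microbes and secrete basement membrane. Kc167 cells are commonly described as resembling plasmatocytes. Su(Hw) binds DNA through zinc fingers at gypsy insulators, CP190 and Mod(mdg4)67.2 join it through protein contacts, and NURF301 is the large subunit of NURF, a complex that slides nucleosomes. A peak shows where an antibody enriched DNA and says nothing of the level of the transcript, so the expression of the 6 markers in these cells was not measured here.

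In mock cells NURF301 was present at all 6 genes and CP190 at 5 of them, whereas the DNA-binding insulator protein Su(Hw) was present at srp, Hml and Pvr. Presence here means that at least 4 of the antibody's 6 lists from mock and mock2 cells had a peak, or in at least 2 of 3 lists for Mod(mdg4)67.2 and GFP. By the same rule NURF301 was present at 66.5% of all protein-coding genes and CP190 at 67.5%. Mod(mdg4)67.2 was present at srp and Hml, against 14.3% of all genes, and GFP at srp, Hml and Pvr, against 13.8%. For Su(Hw) the share of all genes was 22.5%. The genes srp, Hml and Pvr are also the longest of the 6, at 17.9, 13.9 and 18.9 kb. By contrast crq, atilla and Col4a1 span 4.77, 2.44 and 7.67 kb. The shares are over genes of any length, and the part of gene length was not tested. The gene without CP190 by this rule was atilla, where 3 of 6 CP190 lists had a peak, all of them in the mock series and none in mock2. The mock series alone counted 6 genes with CP190 and the mock2 series 5.

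**Figure D1:**
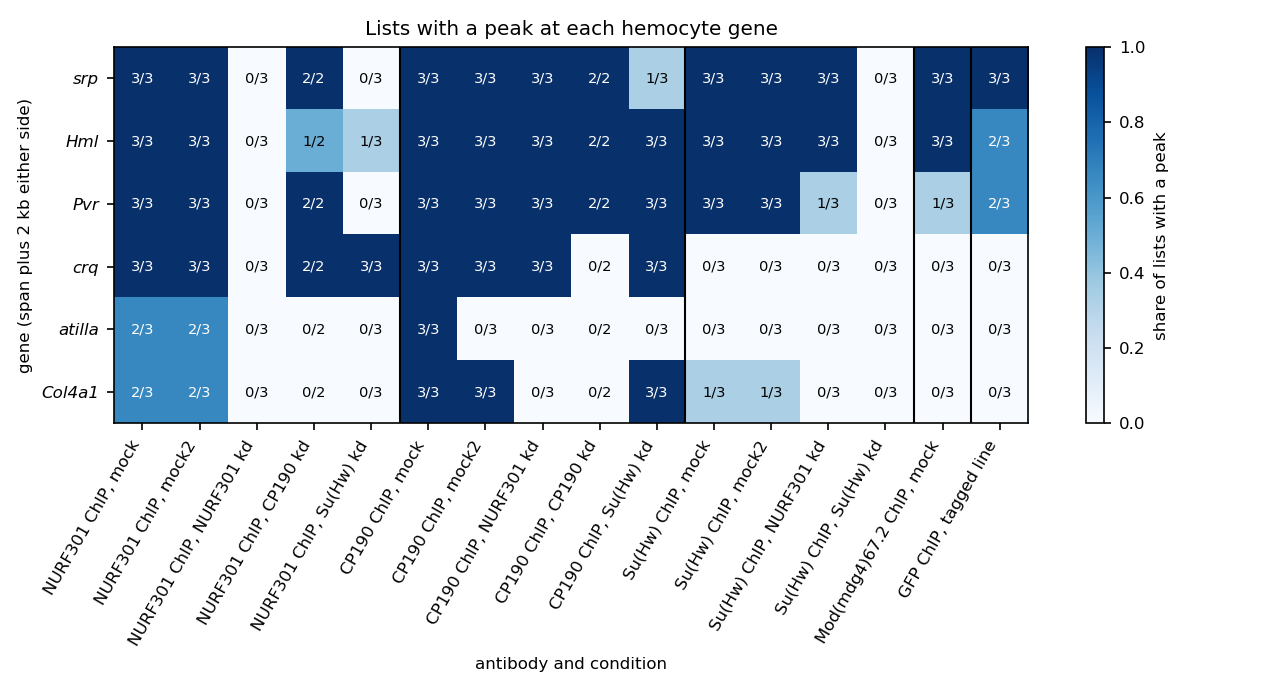
Number of lists with a peak at each gene, by antibody and condition. Each cell gives the lists with a peak over the lists of the group, and darker blue marks a larger share. The columns for NURF301 after NURF301 knockdown and for Su(Hw) after Su(Hw) knockdown are 0 for every gene.

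The peaks gathered at 15 places, called loci below and numbered within each gene by rising coordinate, which hold 201 of the 206 peaks. The other 5 peaks reached into a window from a summit outside it: 4 NURF301 peaks inside vkg, the neighbour of Col4a1 (2L, summit at 5027541), and 1 wide CP190 peak at Hel89B near srp (3R, summit at 15983551). In mock cells NURF301 had a peak in at least 1 list at 13 loci and CP190 at 13, and both were found at 11. Su(Hw) had a peak at 4 loci, and CP190 had one at all 4 of these. Of the 15 loci, srp locus 4 and Hml locus 2 held peaks of all 5 antibodies. Coordinates are those of the peaks, counted from 1. For the files, the genome build was not given in the sources used here, and the annotation gives no strand, so gene ends are named by coordinate and not as starts or stops.

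**Figure D2:**
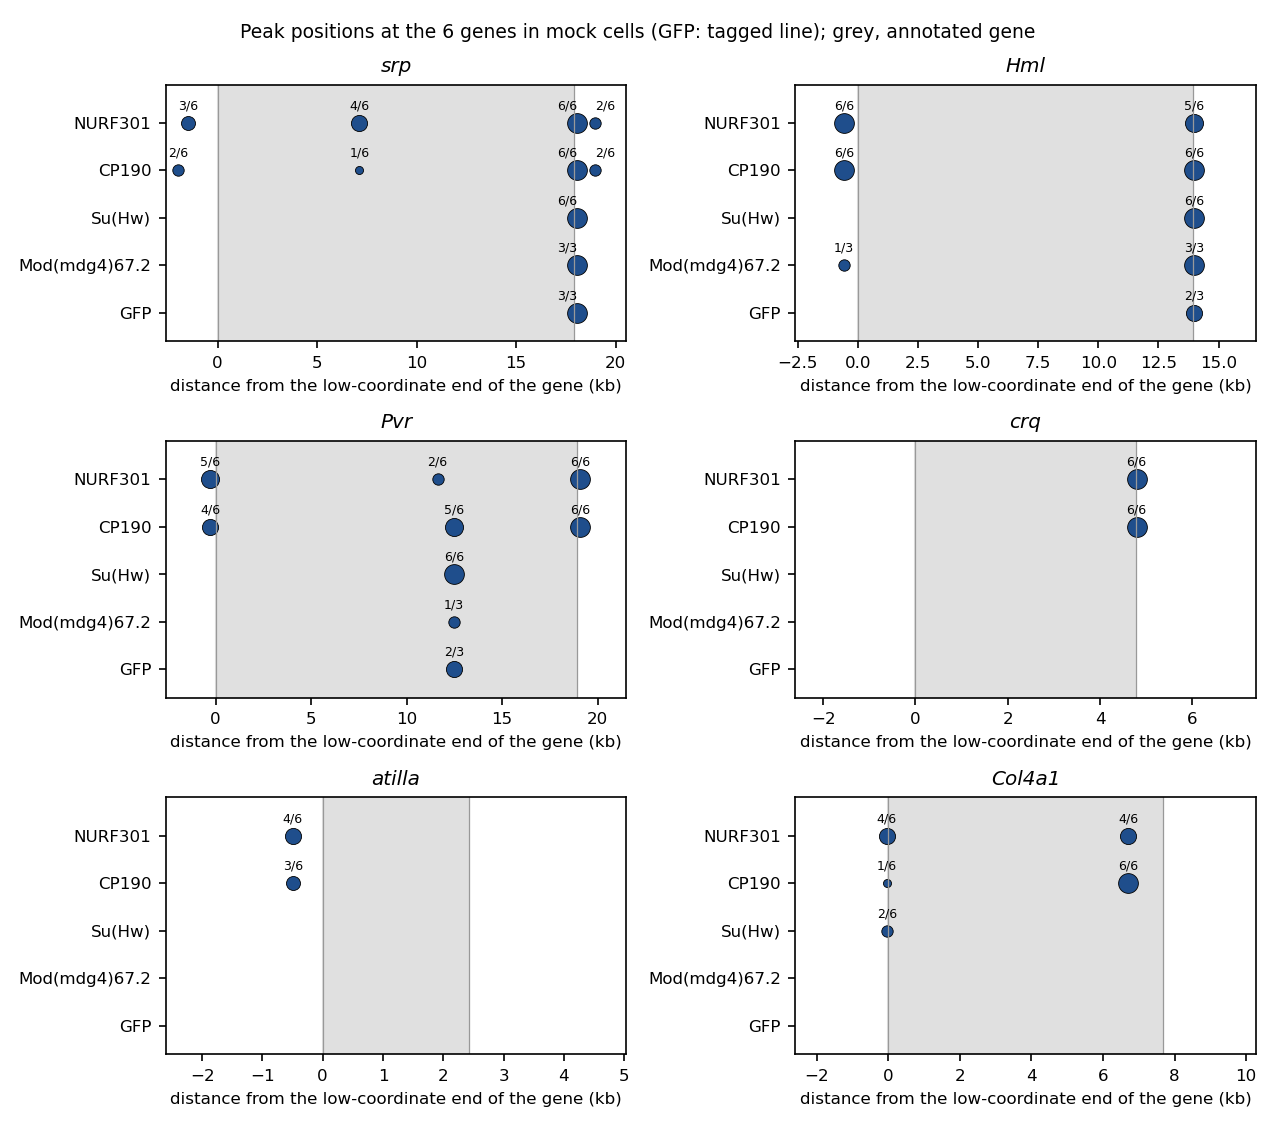
Positions of the 15 loci in mock cells (GFP in the tagged line). The horizontal axis is the distance in kb from the end of the gene with the lower coordinate, the grey band is the annotated gene, and the size of a point and the fraction above it give the lists with a peak. At srp the 5 antibodies meet at 1 place by the high-coordinate end of the gene, and at crq NURF301 and CP190 share the sole locus.

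The transcription factor gene srp encodes Serpent, which specifies hemocytes and also acts in the fat body. Its locus 4 (3R, summits from 16004178 to 16004274) lies between srp and the noncoding gene lncRNA:CR42839, and the median peak covered an end of each. All 6 NURF301, 6 CP190, 6 Su(Hw), 3 Mod(mdg4)67.2 and 3 GFP lists had a peak there. The median summits of the 5 antibodies lay 0 to 12 bp apart. Strength is given below as the percentile of a peak within its own list by -log10 q, so that 100 is the strongest peak of the list, with the fold enrichment that the authors' peak caller gave beside it.

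For Su(Hw), srp locus 4 was at percentiles 94.8, 96.7 and 97.8 in the mock series, with fold enrichments of 18.4, 16.5 and 23.8. In mock2 the same peak was at percentiles 73, 56.8 and 42.8, with fold enrichments of 6.36, 5.51 and 3.78. The mock series was thus higher in each of its 3 lists than any mock2 list. CP190 had the opposite order at this locus, with percentiles of 75.8, 74.8 and 49.5 in mock and 93.7, 92.5 and 89.9 in mock2. The NURF301 percentiles overlapped between the series, at 69.4, 64.5 and 45.5 in mock and 76, 40.4 and 64.1 in mock2. The lowest NURF301 value of each series came from its shortest list, mock replicate 3 with 5450 peaks and mock2 replicate 2 with 4612 peaks, where the other 4 NURF301 mock lists held 7973 to 8234. Mod(mdg4)67.2 was at percentiles 86.4, 91.9 and 77.4 and GFP at 75.6, 91.6 and 61.

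The other srp loci held weaker peaks in fewer lists. Locus 3 (15993262 to 15993299), inside srp and lncRNA:CR44133, had a NURF301 peak in 4 of 6 lists at percentiles 23.7 to 35, and was absent from both short lists. It had a CP190 peak in 1 list, at percentile 0.648. Locus 2 (15984684), between Hel89B and srp, had a NURF301 peak in 3 lists at percentiles 2.85 to 3.67. Locus 1 (15984147 to 15984187), nearby, held CP190 summits in lists 1 and 2 of the mock series alone, at percentiles 2.12 and 1.58. In mock list 3 the wide CP190 peak with its summit at 15983551 ran to 15984350 and so covered this place. Locus 5 (16005093 to 16005162), inside lncRNA:CR42839, held summits in mock lists 1 and 2 of NURF301 (percentiles 9.22 and 20.9) and of CP190 (15.7 and 17.5). It held none in mock2. The CP190 peak of locus 4 in mock list 3 ran to 16005235 and covered locus 5 too. In the CP190 tests below, loci 4 and 5 formed 1 merged site, called srp locus 4. Every peak with its summit at locus 1, 2, 3 or 5 was weaker by percentile than the peak of locus 4 in the same list.

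Hml encodes Hemolectin, a large secreted clotting protein and a common marker of larval hemocytes, and it was flanked by 2 loci of different make-up. Locus 1 (3L, 13845397 to 13845566), between Tsp68C and Hml, had NURF301 and CP190 in 6 of 6 lists each, Mod(mdg4)67.2 in 1 of 3 at percentile 0.106, and no Su(Hw). Locus 2 (13859966 to 13860126), inside CG8745 where it adjoins Hml, had CP190 and Su(Hw) in 6 of 6 lists, NURF301 in 5 of 6, Mod(mdg4)67.2 in 3 of 3 and GFP in 2 of 3. The median summits at locus 2 lay 0 to 5 bp apart over the 5 antibodies.

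CP190 was stronger at Hml locus 1, at percentiles 64.8, 91.9 and 93.5 in mock and 95.6, 96.3 and 97.2 in mock2. At locus 2 it was at 47.3, 52.1 and 54.4 in mock and 69.2, 74.9 and 76.3 in mock2, so that each mock2 list lay above each mock list at both loci. NURF301 was at percentiles 27.2 to 67.7 at locus 1 and 5.12 to 19.4 at locus 2. Su(Hw) at locus 2 was higher in the mock series (62.6, 64.7 and 64.9) than in mock2 (31.5, 35.7 and 45.2), the same order as at srp locus 4.

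Pvr encodes the receptor of the PDGF- and VEGF-related factors, which guides hemocytes and keeps them alive. Its 4 loci fell into those with NURF301 and those with Su(Hw), and none had both. Locus 4 (2L, 8239955 to 8240164), between Pvr and Spn28F, had NURF301 and CP190 in 6 of 6 lists. CP190 was at percentiles 71, 92.9 and 96 there in mock and 93.5, 95.4 and 97.6 in mock2, and NURF301 at 16.9 to 62.8 over the 6 lists. Locus 1 (8220652 to 8220763), inside Snx6 next to Pvr, had NURF301 in 5 of 6 lists and CP190 in 4 of 6. The CP190 lists comprised all 3 of mock, at percentiles 28.5 to 34.5, and 1 of mock2, at percentile 1.23.

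Inside Pvr, locus 3 (8233412 to 8233504) had Su(Hw) in 6 of 6 lists, CP190 in 5 of 6, GFP in 2 of 3 and Mod(mdg4)67.2 in 1 of 3, and NURF301 in none. Su(Hw) was weak there in the mock series, at percentiles 4.3, 4.81 and 11.5, and higher in mock2, at 30.6, 34.9 and 36.2. This order is the reverse of that at srp and Hml. CP190 was at 4.9, 16.2 and 23.3 in mock and at 29 and 37.9 in the 2 mock2 lists with a peak. Locus 2 (8232598 to 8232599), also inside Pvr, had a NURF301 peak in 2 mock2 lists only, at percentiles 3.1 and 4.82.

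The engulfment receptor gene crq encodes Croquemort, a CD36-family scavenger receptor with which plasmatocytes take up apoptotic cells. It had 1 locus (2L, 453005 to 453079), between crq and shv with an end of each under the median peak, and both NURF301 and CP190 were there in 6 of 6 lists. NURF301 was at percentiles 67.8, 85.7 and 87 in mock and 73.2, 89.2 and 92.2 in mock2, the highest median of NURF301 (86.3) among the 15 loci. CP190 was at 69.3, 70 and 81.5 in mock and 50.8, 54.9 and 59.3 in mock2. At this gene the mock series was the higher one for CP190, unlike at srp locus 4 and at Hml. No Su(Hw), Mod(mdg4)67.2 or GFP peak was found in the crq window.

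The lamellocyte marker atilla encodes a small membrane-anchored protein of the flattened hemocytes that wrap parasites. Its 1 locus (2L, 12174914 to 12174995) lies between lncRNA:CR43356 and bru1, over an end of bru1 and outside atilla itself. NURF301 had a peak there in 4 of 6 lists, at percentiles 20.9 and 13.6 in mock and 15.8 and 10 in mock2, and again in neither short list. The 3 CP190 peaks of the mock series were at percentiles 1.98, 0.346 and 2.33. No list after any knockdown had a peak in this window.

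Col4a1 encodes a chain of type IV collagen, the basement membrane protein that hemocytes secrete, and lies beside vkg, the gene of its partner chain. Locus 2 (2L, 5036299 to 5036339), inside Col4a1, held one of the strongest CP190 peaks of the mock series, at percentiles 99.4, 98.2 and 99.5 and fold enrichments of 27.6, 23.7 and 16.4. By -log10 q it ranked 61 of 10578, 185 of 10115 and 58 of 10491 peaks. In mock2 it was at percentiles 46.3, 75.1 and 79.6, with fold enrichments of 12.5, 16.2 and 22.9. The percentiles of the 2 series did not overlap, while the fold enrichments did.

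NURF301 at Col4a1 locus 2 was at percentiles 39.7, 34.5, 36.3 and 32.3 in the 4 longer lists and absent from both short ones. The median summits of NURF301 and CP190 there were 0 bp apart. Locus 1 (5029508 to 5029618), between vkg and Col4a1 over an end of Col4a1, had NURF301 in the same 4 lists at percentiles 10.3 to 17.9. It also had Su(Hw) in 2 of 6 lists (percentiles 0.288 and 4.24) and CP190 in 1 (1.64).

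**Figure D3:**
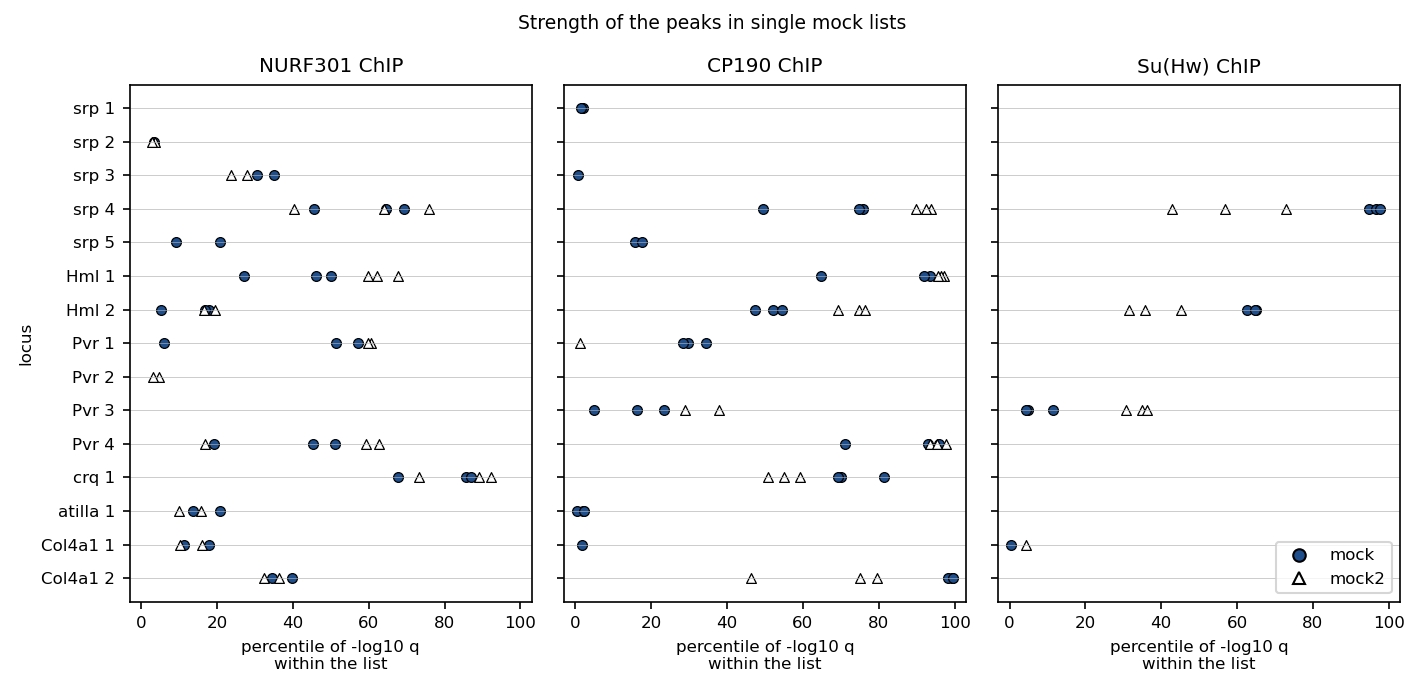
Strength of each peak in single mock lists, as the percentile of its -log10 q within the list. Filled circles are lists of the mock series and open triangles those of mock2, and a missing symbol means no peak. CP190 at Col4a1 locus 2 reached 98.2 to 99.5 in mock and 46.3 to 79.6 in mock2, while at Hml locus 1 it was higher in mock2.

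Each knockdown was then compared with mock cells. For each antibody, peaks of all its libraries in the comparison were merged into sites where they shared at least 1 bp. The presence of a peak in knockdown lists was compared with presence in all 6 mock and mock2 lists by a two-sided Fisher exact test. Both series were pooled because 3 against 3 lists cannot reach 0.05, so no call was possible against a single series. The test treats the series as alike, although some percentiles given above did not overlap between them. P-values were adjusted by Benjamini-Hochberg over every site of the genome that could reach 0.05. Whether a site could do so depended on its number of lists with a peak. A site with a peak in every list could not be tested, and one with few such lists could be called gained but not lost. The shares of tested sites below therefore leave out sites that kept every peak. A site with an adjusted p under 0.05 is called lost or gained, and a reference site is one that at least 4 of 6 mock lists shared. The comparisons of an antibody share its mock lists and are given side by side. Read numbers per library were not given in the sources used here, and knockdown lists were shorter than mock lists, so a missing peak may be one below the threshold of a shorter list. The part of list length in these results was not tested beyond the lists of equal length given below.

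**Figure D4:**
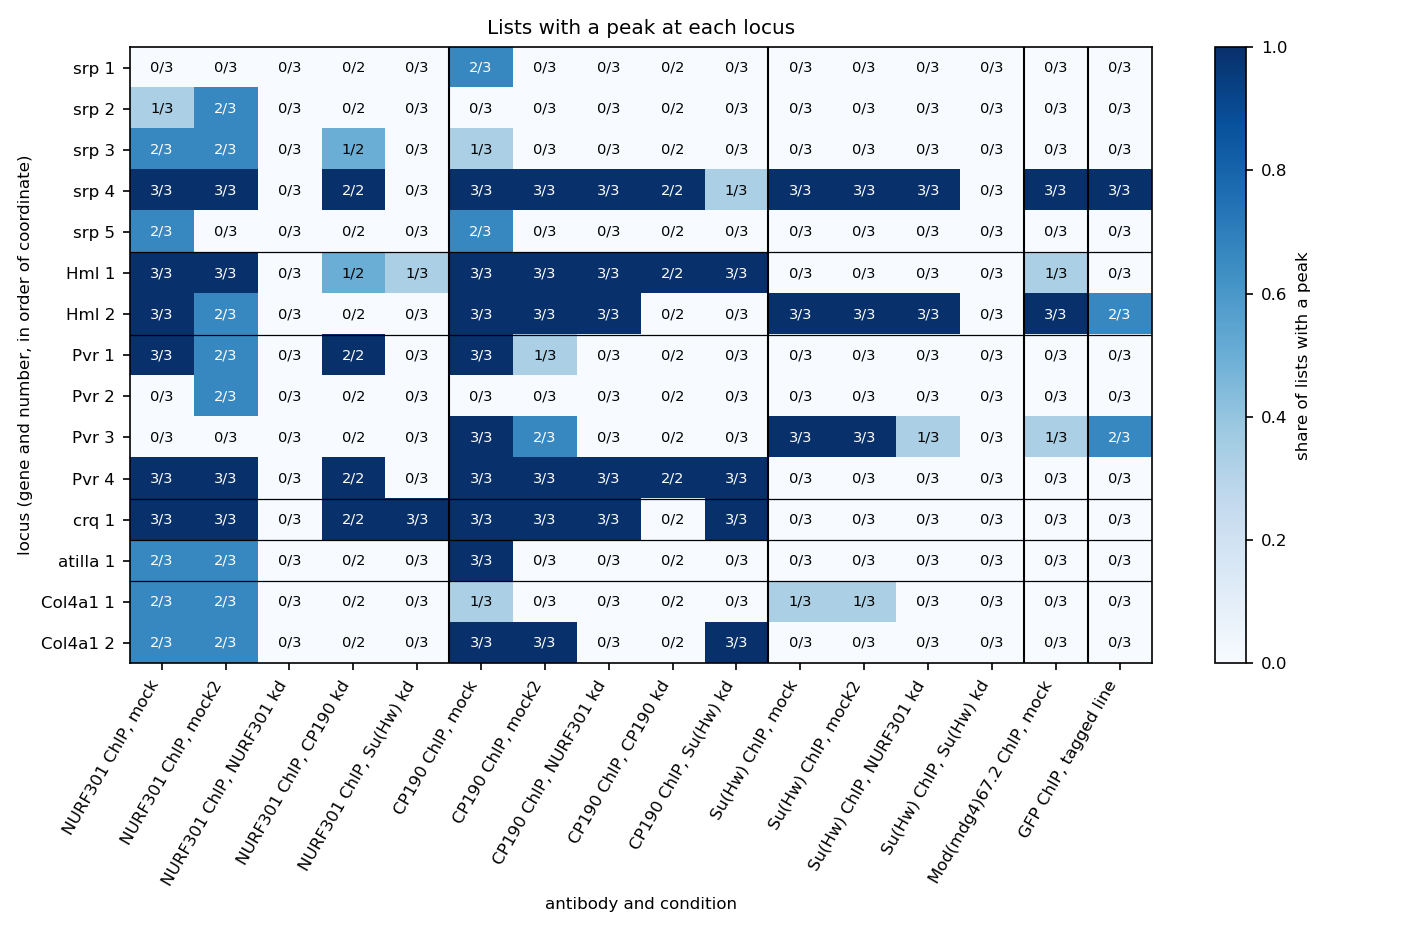
Number of lists with a peak at each of the 15 loci, by antibody and condition. Each cell gives the lists with a peak over the lists of the group. After NURF301 knockdown the CP190 peaks of srp 4, Hml 1, Hml 2, Pvr 4 and crq 1 were in 3 of 3 lists, and Col4a1 2 was in 0 of 3.

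The targeted protein was checked first. After Nurf301 dsRNA the 3 NURF301 lists held 253, 3 and 25 peaks in the whole genome and none at the 6 genes. All 10 NURF301 reference sites of these genes lacked a peak in every knockdown list, against 96.5% of all 7360 reference sites. Of the 11 sites that could be tested, 4 were lost, namely srp locus 4, Hml locus 1, Pvr locus 4 and crq (0 of 3 against 6 of 6 lists each, exact p = 0.0119, adjusted p = 0.0231), against 51.6% of all tested sites. None was gained (0% of all tested sites). With only peaks of -log10 q of at least 20 the call at Pvr locus 4 ended and the other 3 were still made. The other 6 reference sites were missing from at least 1 mock list and did not pass. Hml locus 2 and Pvr locus 1 had 0 of 3 against 5 of 6 (Fisher exact test, adjusted p = 0.071), and Col4a1 loci 1 and 2, atilla and srp locus 3 had 0 of 3 against 4 of 6 (adjusted p = 0.177 in the same exact test). For a site with 4 peaks in all, 0 of 3 is the greatest loss possible. The last 4 sites could therefore not have been called lost, though they count among the 11 tested. When the 2 short NURF301 mock lists were left out, a choice made after the data were seen, 10 member sites were lost. The other 6 reference sites were each missing from 1 or both of these lists. Leaving the lists out thus raised the share of mock lists with a peak there. Leaving out mock2 replicate 2 alone gave 6, adding Hml locus 2 and Pvr locus 1.

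With NURF301 depleted, CP190 was in every list at 5 of its 8 reference sites at these genes and in none at the other 3. The 3 CP190 lists, of 5465, 4091 and 4226 peaks, each had srp locus 4, Hml loci 1 and 2, Pvr locus 4 and crq. Percentiles were 92.3, 71.8 and 82.1 at srp locus 4 and 89.4, 87.8 and 99 at Hml locus 1. At crq they were 76.3, 75.6 and 64.9. Percentiles at Hml locus 2 were 59.4, 21.4 and 52.8, and at Pvr locus 4 they were 98.6, 83.2 and 85.2. These lay inside the range of the 6 mock lists at the same locus, except 99 at Hml locus 1 and 98.6 at Pvr locus 4, above it, and 21.4 at Hml locus 2, below it. The percentiles come from shorter lists, and the -log10 q itself was lower, at 80, 39.4 and 48.8 at Hml locus 1 against 194 to 467 in the mock lists.

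The strong CP190 peak inside Col4a1 was in none of the 3 lists after NURF301 knockdown, against 6 of 6 mock lists (exact p = 0.0119, adjusted p = 0.0535). The call therefore missed the threshold of 0.05. No site of the genome passed in this comparison: 0 of 4759 tested sites were lost or gained (0% each), although 2301 were lost at an unadjusted p under 0.05 by the same exact test. With only peaks of -log10 q of at least 20 the Col4a1 site was called (adjusted p = 0.0491, exact test). It was also called when any 1 mock list was left out (adjusted p from 0.0292 to 0.0488, exact test), except mock2 replicate 3 (0.0546), and not when a knockdown list was left out (0.0527 to 0.0653). Leaving out a mock list also cut the tested sites from 4759 to between 2086 and 3754. The adjusted p could therefore fall although fewer lists were compared. With every list kept to the same number of strongest peaks the Col4a1 peak was again absent from 3 of 3 knockdown lists (adjusted p = 0.0551, exact test). Pvr locus 3 (0 of 3 against 5 of 6 lists, adjusted p = 0.0985, exact test) and Pvr locus 1 (0 of 3 against 4 of 6) were the other reference sites without a peak. In all, 3 of the 8 CP190 reference sites lacked a peak, against 35.6% of 8308 in the genome, and the share of list and site pairs with a peak was 62.5% at the 6 genes and 52.7% over all sites.

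Su(Hw) was found after NURF301 knockdown at all 3 of its reference sites. The 3 lists held 3540, 2625 and 3316 peaks, and srp locus 4 was at percentiles 76, 9.54 and 93.1, with fold enrichments of 7.33, 2.8 and 10.9. Replicate 2, the shortest list, was the low one here and also at Hml locus 2, which was at 33.8, 8.17 and 44.8. Pvr locus 3, weak in the mock series, was in replicate 3 alone (percentile 4.55), and its 1 of 3 against 6 of 6 lists gave an exact p = 0.0833. None of the member sites could be tested after adjustment, where 26.8% of 1533 tested sites in the genome were lost and 0% gained, and 0 of 3 member reference sites had no peak in any list, against 21.5% of 4523.

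After Cp190 dsRNA the 2 CP190 lists held 1207 and 1286 peaks, and 3 member sites kept a peak in both. These were srp locus 4 (percentiles 79.4 and 78.9), Hml locus 1 (73.7 and 90.8) and Pvr locus 4 (77.2 and 82.1). Over the mock lists their CP190 peaks had median percentiles of 82.8, 94.5 and 94.5. The CP190 peaks of Hml locus 2, crq and Col4a1 locus 2 were in 0 of 2 against 6 of 6 lists and were called lost (exact p = 0.0357, adjusted p = 0.0396). Their median percentiles over the mock and mock2 lists were 61.8, 64.3 and 88.9. The order of Col4a1 locus 2 and srp locus 4 differed between the series. Col4a1 locus 2 was the higher one in the mock series (98.2 to 99.5 against 49.5 to 75.8). It was the lower one in mock2 (46.3 to 79.6 against 89.9 to 93.7). That is 3 lost of 3 tested, against 90.1% of 4941 tested sites in the genome, and 0% were gained. The 3 member sites that kept a peak in both lists could not be tested, so these shares do not count such sites. Pvr loci 1 and 3 also had no peak, which makes 5 of 8 member reference sites against 84.1% of all. The share of list and site pairs with a peak was 37.5% at the 6 genes and 14.5% over the genome.

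Those CP190 calls rest on the smallest p that 2 against 6 lists allow, and leaving out any mock list ended all 3 of them (adjusted p of Col4a1 locus 2 from 0.0513 to 0.0658, exact test). With lists of equal length 2 member reference sites remained and neither was lost.

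NURF301 in the same Cp190 knockdown was present in 2 of 2 lists at srp locus 4, Pvr loci 1 and 4 and crq. At crq its percentiles were 62.6 and 84.3, and at srp locus 4 they were 55.4 and 41.6. Of these, 62.6 lay below the mock range of 67.8 to 92.2 at crq, and the other 3 lay inside the mock range of their locus. It was in 1 of 2 lists at srp locus 3 and Hml locus 1. It was in neither list at Hml locus 2, atilla and both Col4a1 loci. These also had no peak in 1 or both of the short NURF301 mock lists. The same holds for Pvr locus 1 and srp locus 3, which did have a peak after Cp190 knockdown. The 4 of 10 reference sites without a peak in either list compare with 36.3% of 7358 in the genome. Over all sites 0 of 1091 were lost or gained (0% each) by the exact test with Benjamini-Hochberg adjustment, with 352 lost at an unadjusted p under 0.05 and a smallest adjusted p of 0.111. The 2 member sites that could be tested, Pvr locus 2 and srp locus 5, had a peak in 2 of 6 mock lists and in neither knockdown list (exact p = 1). With so few peaks these 2 could only have been called gained. None of the 10 reference sites could be tested, so no loss could be called at the 6 genes here.

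Su(Hw) was absent from all 3 of its member sites after su(Hw) dsRNA. The lists held 74, 77 and 97 peaks. At srp locus 4, Hml locus 2 and Pvr locus 3 it had a peak in 0 of 3 against 6 of 6 lists, and all 3 tested sites were called lost (exact p = 0.0119, adjusted p = 0.0156). In the genome 76.3% of 4881 tested sites were lost, 0% were gained and 97.5% of 4525 reference sites had no peak in any knockdown list. The 3 calls were also made without each single library, and with only peaks of -log10 q of at least 20 those at srp and Hml were.

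After Su(Hw) knockdown CP190 was in every list at 4 loci, and in 0 or 1 of 3 lists at the 3 loci where Su(Hw) had been in every mock list. The 3 lists held 4231, 3691 and 3856 peaks. Hml locus 1, Pvr locus 4, crq and Col4a1 locus 2, none of which had Su(Hw) in mock cells, had CP190 in 3 of 3 lists. Their percentiles were 89.5 to 95.2 at Hml locus 1, 90.4 to 98.7 at Pvr locus 4, 57.6 to 68.8 at crq and 73 to 90.3 at Col4a1 locus 2. At the loci with Su(Hw), CP190 was in 0 of 3 lists at Hml locus 2, in 0 of 3 at Pvr locus 3 and in 1 of 3 at srp locus 4, where the peak of replicate 1 was at percentile 1.68 with a fold enrichment of 2.15. At Pvr locus 1, which had no Su(Hw), CP190 was in 0 of 3 lists as well. The difference between loci with and without Su(Hw) was not tested.

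Of these, Hml locus 2 was called lost (0 of 3 against 6 of 6 lists, exact p = 0.0119, adjusted p = 0.0318), which is 1 of 4 tested member sites against 37.3% of 5793 in the genome. Pvr locus 3 was not (0 of 3 against 5 of 6, adjusted p = 0.0811, exact test), and srp locus 4 could not reach the threshold (exact p = 0.0833). Without Su(Hw) knockdown replicate 1, or with only peaks of -log10 q of at least 20, srp locus 4 was lost too, and without mock2 replicate 1 so was Pvr locus 3. With lists of equal length the srp locus 4 peak was absent from all 3 knockdown lists but no member site passed. In all, 3 of 8 member reference sites had no peak against 48.7% of all, and 0.0518% of tested sites were gained, 3 in the genome and none at these genes. With lists of equal length 321 sites of the genome were gained, again none at these genes. The share of list and site pairs with a peak was 54.2% at the 6 genes and 45.6% in the genome.

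NURF301 after Su(Hw) knockdown was found at crq in 3 of 3 lists and elsewhere at Hml locus 1 alone, in 1 of 3. At crq the percentiles were 96.3, 65.3 and 22.5, with fold enrichments of 8.77, 4.73 and 3.42, in lists of 1819, 1965 and 2027 peaks. The 3 lists thus ranged more widely there than the 6 mock lists did, at 67.8 to 92.2. Both srp locus 4 and Pvr locus 4 were lost (0 of 3 against 6 of 6 lists, exact p = 0.0119, adjusted p = 0.0418), 2 of 9 tested member sites against 28.5% of 5107 in the genome, and 0% were gained. With only peaks of -log10 q of at least 20 the Pvr locus 4 call ended and srp locus 4 was still lost. Pvr locus 4 had no Su(Hw) peak in any mock list. Of the 10 member reference sites 8 had no peak in any knockdown list, against 62.3% of 7360, and the share of list and site pairs with a peak was 13.3% against 25.1%.

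The NURF301 counts after Su(Hw) knockdown also moved with single lists. Without both short mock lists, a choice made after the data were seen, 8 member sites were lost. Without mock2 replicate 2 alone 4 were, and without Su(Hw) knockdown replicate 1 Hml locus 1 was lost as well. With lists of equal length 1 member reference site remained and it was not lost.

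**Figure D5:**
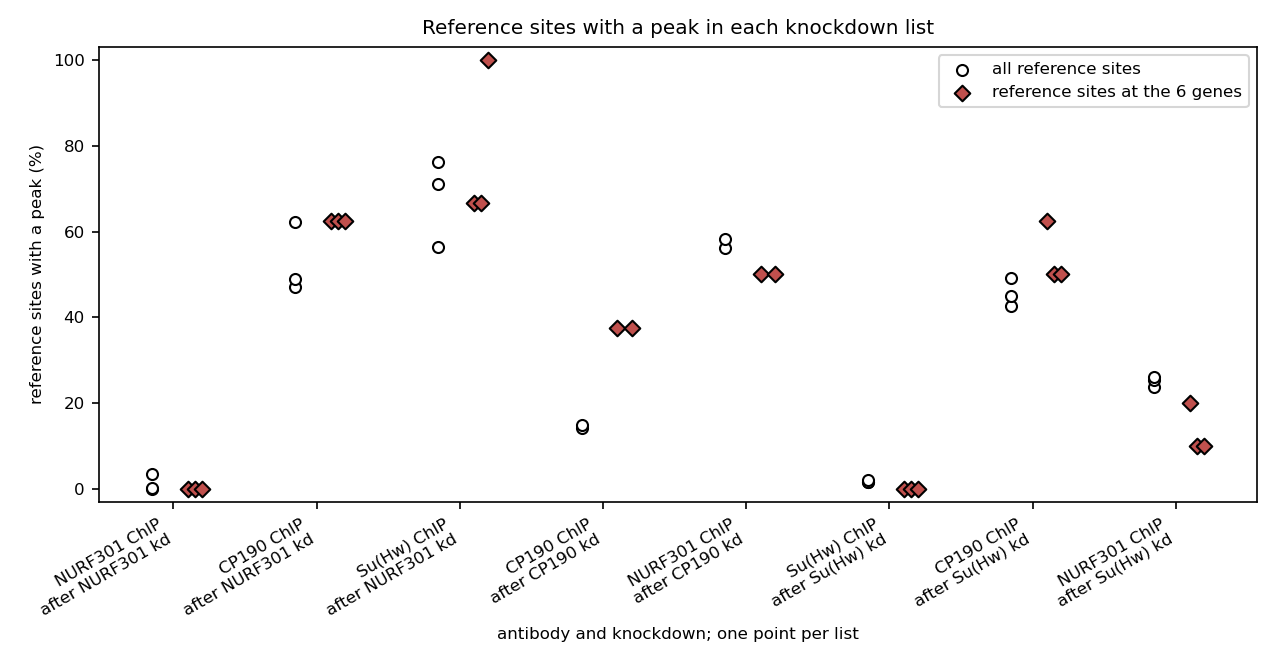
Share of reference sites with a peak in each single knockdown list, in percent. Open circles are all reference sites of the genome and red diamonds those at the 6 genes, 1 symbol per list. The reference sites at the 6 genes number 10 for NURF301, 8 for CP190 and 3 for Su(Hw), so that 1 site moves a diamond by a large step.

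Side by side, the loci differed in how CP190 stood over the knockdowns. At srp locus 4 all 5 antibodies met in mock cells, CP190 was still there after NURF301 and CP190 knockdown, and after Su(Hw) knockdown it was in 1 of 3 lists, with NURF301 in none. At Hml locus 1 and Pvr locus 4, which had NURF301 and CP190 without Su(Hw), CP190 was in every list after each of the 3 knockdowns. At Col4a1 locus 2 CP190 was in every list after Su(Hw) knockdown and in no list after NURF301 or CP190 knockdown. At crq CP190 was in every list after NURF301 and Su(Hw) knockdown and in none after CP190 knockdown, and at Hml locus 2 it was in every list after NURF301 knockdown and in none after the others. Pvr loci 1 and 3 had no CP190 peak after any of the 3 knockdowns. The remaining loci had CP190 in at most 3 of 6 mock lists and in no knockdown list. No difference between knockdowns was tested.

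A wider list of 31 hemocyte genes, fixed by role, showed where the 6 stand. NURF301 was present at 19 of these genes and CP190 at 19, Su(Hw) at 9, Mod(mdg4)67.2 at 4 and GFP at 4, beside the genome shares given above. Among 7 transcription factors, NURF301 and CP190 were both at ush, lz, gcm2, kn and zfh1, and Su(Hw) was at ush, kn and zfh1. The factor gene ush, whose product Friend of GATA binds Serpent, had all 5 antibodies. Of 8 extracellular matrix genes, 7 had NURF301 and CP190, namely vkg, Pxn, LanA, LanB1, LanB2, SPARC and Tig. Of 6 plasmatocyte receptor and surface genes, drpr, the Draper engulfment receptor, was the 1 with either protein. None of these 6 had Su(Hw), as at crq.

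Among the 3 enzyme genes of crystal cells and lamellocytes, PPO3, a prophenoloxidase of lamellocytes, had NURF301 and CP190. Of 4 adhesion and cytoskeleton genes, mys, msn and cher had both, and cher had Su(Hw), Mod(mdg4)67.2 and GFP too. Of the 3 genes for ligands of Pvr, Pvf1 had NURF301 and CP190, Pvf2 had NURF301, and Pvf3 had CP190, Su(Hw) and Mod(mdg4)67.2. After NURF301 knockdown CP190 was in no list at 3 of 19 genes of the list, namely vkg, LanA and SPARC, while 4 other matrix genes, Pxn, LanB1, LanB2 and Tig, had a peak in at least 1 list. Over all genes with CP190 in mock cells 15.5% had no CP190 peak in any of these 3 lists. After Su(Hw) knockdown CP190 was in no list at LanA, SPARC, Tig, cher and Pvf3 (5 of 19, against 21.9% of all genes with CP190). By the exact test with Benjamini-Hochberg adjustment, lost CP190 sites were then called at 5 of 15 tested genes of the list, ush, kn, Pxn, cher and Pvf3. Lost sites were called at 13 of 19 tested genes for NURF301 after NURF301 knockdown, 13 of 15 for CP190 after CP190 knockdown, 8 of 9 for Su(Hw) and 3 of 15 for NURF301 after Su(Hw) knockdown. They were called at 1 of 2 for Su(Hw) and 0 of 14 for CP190 after NURF301 knockdown, and at 0 of 11 for NURF301 after CP190 knockdown. A gene can hold several sites, so these shares are not on the scale of the shares of sites. The share of all protein-coding genes with a lost site was not counted. These counts therefore do not tell whether the genes of the list differ from other genes. None of the 31 genes had a gained site in any of the 8 comparisons.

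For each gene, others with a like pattern of peaks over the 46 lists were sought by the mean absolute difference of the strongest percentile in the window, with 0 where a list had no peak. The nearest to srp were path, at 7.42 percentile points, Jon99Fii at 7.64 and aos at 7.67. Those nearest to Pvr were Paip1 at 6.52, N, the gene of the Notch receptor, at 7.4, and betaTub60D at 7.41. Nearest to crq was Rpn9, a proteasome subunit gene, at 4.06, and CG9205 and CG5382 followed at 4.82 and 4.89. For Hml the nearest were Ald1 at 11.8, Tsp42Ed at 11.9 and nuf at 12.2. A list without a peak at either gene adds 0 to the mean. Hml had a peak in 36 lists, crq in 23 and Col4a1 in 15, so the distances are not on 1 scale between the genes. AANATL3 (1.88) and Rpn12R (1.89), followed by ken, were nearest to Col4a1. The values for atilla, from 0.145 for CG31668, rest on 7 weak peaks and say little.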

How the data were processed

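ChIP-seq peak lists of 46 libraries in 16 groups were used; the other 17 of 63 samples are input chromatin and were not used here. MACS2 2.2.7.1, Picard 2.25.2, Bowtie2 2.4.2 and SAMtools 1.12 were used by the authors, per the submitters' processing notes, which give here no settings, control or build. Each list deposited by the authors gives a score, which equals 10 times the -log10 q without its decimals, a ratio (the fold enrichment at the summit), and a -log10 p and -log10 q, all unchanged here. Read depth was not given in the sources used here. The number of peaks (3 to 10578 per list) is given instead and does not measure depth. After NURF301 knockdown, for example, it was 3 to 253 for NURF301 and 4091 to 5465 for CP190.

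Peaks on the 6 main chromosomes were processed in Python 3.11.15 (scipy 1.17.1, pandas 2.3.3, numpy 2.4.6, matplotlib 3.10.9). Gene spans and neighbours came from RefSeq, Release 6, without strand, and all 31 listed genes matched by symbol. A locus joins summits at most 300 bp apart. A site or locus belongs to a gene if its median summit lies in the span plus 2 kb, a choice made after the data were seen. Sites were tested by two-sided Fisher exact tests with Benjamini-Hochberg adjustment, checked beforehand on artificial lists. Same-numbered libraries deviated together little (correlations of -0.1 to 0.117, with 1 pair over 0.1), so no block was used in the main test. For Su(Hw) after NURF301 knockdown all 3 correlations were positive, at 0.0173 to 0.117. Counts with a block are given below. The named genes are the 6, the 31 of the list and the 3 nearest in pattern to each of the 6. Members and lists were chosen with earlier results of these data known.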

Additional observations from a re-analysis of the deposited data

Results flagged for a closer look

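In 48 sets of 4 to 6 mock lists (percentiles and fold enrichments at the loci, and peak numbers), a single list stood apart from the others by Dixon's test in 4, where chance alone gives about 1 in 20. All 4 are low values of mock replicate 3. CP190 at Hml locus 1 was at percentile 64.8 in that list and at 91.9 to 97.2 in the other 5. CP190 at Pvr locus 4 was at 71 against 92.9 to 97.6. NURF301 was at 5.12 at Hml locus 2, against 16.5 to 19.4 in the other 4 lists with a peak, and at 5.93 at Pvr locus 1, against 51.3 to 60.6. The NURF301 list of mock replicate 3 is one of the 2 short ones, with 5450 peaks, while the CP190 list held 10491, about as many as its series. The part of list length in these values was not tested.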

How the results depend on the processing

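The limits first. Presence in 2 or 3 lists gives few possible p-values, and a peak under the caller's threshold counts as absent. Leaving out each library in turn gave these ranges (lost, all sites): NURF301 after NURF301 knockdown 3898 to 4866, CP190 after NURF301 knockdown 0 to 2299, Su(Hw) after NURF301 knockdown 0 to 763, CP190 after Cp190 knockdown 0 to 0, CP190 after Su(Hw) knockdown 2163 to 3394 and NURF301 after Su(Hw) knockdown 1455 to 2366, with 0 to 1 gained for Su(Hw) after NURF301 and 3 to 5 for CP190 after Su(Hw) knockdown. Lost sites at the 6 genes ranged over 4 to 6, 0 to 2, 0 to 0, 0 to 0, 1 to 2 and 2 to 4 in the same order. Member sites without any peak ranged over 0 to 1 for Su(Hw) after NURF301 knockdown, and GFP was at 1 to 3 member genes. Leaving out a Cp190 knockdown library leaves 1 list and no testable site.

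With -log10 q of at least 20, CP190 after NURF301 knockdown lost 1304 sites, 1 of them at the 6 genes. CP190 after Su(Hw) knockdown then lost 2 member sites and NURF301 lost 1, Su(Hw) after NURF301 knockdown had 1 member site without a peak, and GFP was at 1 gene. With lists of equal length, 0 sites were lost in Su(Hw) after NURF301, CP190 after Cp190 and NURF301 after Su(Hw) knockdown, and CP190 after Su(Hw) knockdown had 842 lost and 321 gained. No member site was lost in any of these (0). Member sites without a peak were 1 (CP190 after NURF301 knockdown), 0 (CP190 and NURF301 after Cp190 knockdown), 1 (CP190 after Su(Hw) knockdown) and 0 (NURF301 after Su(Hw) knockdown), since fewer reference sites remain. Equal length was not run for the shortest lists, under 1000 peaks. With summits widened by 150 bp in place of whole peaks, gained sites numbered 6, 17, 14 and 10 for Su(Hw) after NURF301, CP190 after Cp190, CP190 after Su(Hw) and NURF301 after Su(Hw) knockdown.

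Without the 2 kb margin, lost member sites and those without a peak were 0 and 2 (NURF301 after NURF301 knockdown), 1 and 2 (CP190 after Cp190), 1 and 1 (Su(Hw) after Su(Hw)), 0 and 1 (CP190 after Su(Hw)) and 0 and 2 (NURF301 after Su(Hw)), and 1 had no peak for NURF301 after Cp190. With 5 kb they were 5 and 5 for Su(Hw) and 2 and 5 for CP190 after Su(Hw) knockdown. As alternatives chosen after the data were seen, counting any overlap with the window gave 2 lost member sites for CP190 after Su(Hw) knockdown, and leaving out both short NURF301 mock lists gave 7094 lost (10 at the 6 genes) after NURF301 and 4578 (8) after Su(Hw) knockdown. With the replicate number as a block, 0 sites were lost in Su(Hw) after NURF301 knockdown, and 0 lost and 0 gained in CP190 after Su(Hw) knockdown (0 at the 6 genes). The block could not be run for the Cp190 knockdown, where 2 numbers cannot reach 0.05. With the mock series alone as reference, member sites without a peak after NURF301 knockdown numbered 11 for NURF301, 4 for CP190 and 0 for Su(Hw). With both series they numbered 10, 3 and 0. The cause of these shifts was not tested.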
